A study of Rattus norvegicus with 24 samples.

Results

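The genes described here encode subunits of the mitochondrial respiratory chain and ATP synthase, as measured in the retina of rats with streptozotocin-induced diabetes and of age-matched control rats. Members were all genes whose current rat symbol begins with Nduf, Uqcr, Atp5 or Cox followed by a digit, together with Cycs and Cyc1, named through the RefSeq accession printed beside each array probe. The rule took 26 genes, with 1 probe each, of the 4013 genes that could be named in this way. They were 2 subunits of complex I, cytochrome c, 9 subunits of complex IV, 11 subunits of ATP synthase and 3 factors that assemble or supply the complexes and are not subunits themselves. No subunit of complex III was among the genes named in this way, so complex III was not analysed here. The RefSeq annotation of the rat genome build GRCr8 holds 125 protein-coding loci that match the same rule, so most of the respiratory chain was not covered.

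The respiratory chain sits in the inner mitochondrial membrane. Complex I takes electrons from NADH and complex III passes them to cytochrome c, a small soluble carrier that delivers them to complex IV, where oxygen is reduced to water. Protons pumped on the way drive the rotation of ATP synthase. Photoreceptors, the most numerous cells of the retina, are densely packed with mitochondria in their inner segments, and the retina is known for its high oxygen use. Most subunits are encoded in the nucleus, and several complex IV subunits exist in separate forms for heart and muscle, lung or testis.

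Total RNA of whole retinas from male Sprague Dawley rats was hybridised to 24 CodeLink rat whole genome arrays, 6 in each of 4 groups. The labels number the arrays of a group separately, whereas the study's list of animals has fewer rats than arrays for 1M Control, so some arrays of that group may share an animal. The diabetic groups (1M STZ and 3M STZ) received 1 intraperitoneal injection of streptozotocin, which destroys the insulin-producing beta cells of the pancreas, and were given no insulin, and retinas were taken 1 month or 3 months later. Control rats (1M Control and 3M Control) received the citrate vehicle alone. The 1 month and 3 month animals were separate sets, and no transgene or further treatment was used. Whole retina was measured, so fewer cells of a type and less RNA per cell cannot be told apart.

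Each level below is the log2 of a background-subtracted probe intensity divided by the median of the rat probes on the same array, so a level of 0 is the array's median probe. A probe was tested where its median over the 24 arrays exceeded the 35th percentile of all probes, a limit of -0.85 on this log2 scale. The test was limma on all 4 groups, and a call needed a Benjamini-Hochberg adjusted p under 0.05 over all 22025 tested probes and a change of at least 1.2-fold. Of the 26 members, 23 passed the limit. The other 3, Cox6a2, Cox8b and Cox8c, did not, and they are the forms of complex IV subunits known from heart and muscle (Cox6a2 and Cox8b) and testis (Cox8c).

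Several members carried short motifs of factors known to regulate respiratory chain genes in the 300 base window around their annotated start (250 bases before it and 50 after, RefSeq, GRCr8), which was given for 23 of the 26 members. The windows of Atp5pd, Cox4i2 and Cox6c were not given. The letters CCGGAAG, bound by the ETS factor GABP and searched on both strands like the others, were found in 5 members (Atp5f1a, Atp5me, Atp5pf, Cox5b and Cox7a2) and in 10.7% of the 21851 windows of protein-coding genes (8.75% of all 33469 windows). AAGATGGCG, a site of YY1, was found in Atp5pf alone and in 2.07% of coding windows (1.73% of all), and TATAAA in Cox8b alone and in 14.2% of all windows. A search for the site of nuclear respiratory factor 1, another known regulator of these genes, is not reported here. No motif overlapped another in these members. A match is a description of these letters and not a measured site. The GC content of the members' windows had a median of 59.7%, from 43.0% in Cox7b to 69.0% in Cox5a, against a median of 55.0% over coding windows.

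Of the following stretches, the first 2 show the GABP letters of Cox5b and Atp5pf. With median scaling their diabetic and control arrays did not overlap at 3 months, and with quantile normalization they did. Over all tested probes, 9.49% had every diabetic array above every control array with median scaling. The GABP letters of Atp5f1a, Atp5me and Cox7a2 are not shown, and a link between motifs and differences was not tested. The last stretch shows the TATAAA of the muscle form Cox8b, which was below the limit. Each stretch is the 100 bases before the annotated start, 5′ to 3′ on the gene's own strand, in lower case with the motif in capitals.
Cox5b, chr9:46417737-46417836 (+ strand): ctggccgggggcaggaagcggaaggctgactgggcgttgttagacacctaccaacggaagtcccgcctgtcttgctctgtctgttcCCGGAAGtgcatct
Atp5pf, chr11:37375102-37375201 (- strand): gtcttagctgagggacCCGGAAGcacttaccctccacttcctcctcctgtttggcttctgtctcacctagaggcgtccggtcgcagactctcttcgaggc
Cox8b, chr1:205408274-205408373 (- strand): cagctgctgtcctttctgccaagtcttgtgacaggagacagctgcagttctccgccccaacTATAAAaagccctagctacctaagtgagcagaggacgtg

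The tested members were among the bright probes of the retina. On each array every RefSeq-named probe was ranked by intensity, from 0 to 100. The median rank of the 23 tested members lay between 93.4 and 95.1 on the 1M Control arrays and between 93.0 and 94.6 on the 1M STZ arrays. It lay between 90.2 and 92.3 on the 3M Control arrays and between 88.9 and 92.4 on the 3M STZ arrays. The ranges of diabetic and control arrays overlapped at both times. Of the 23 tested members, 18 had a mean rank above 80 in all 4 groups. Intensities of different probes also depend on how well each probe binds, so a rank is a property of the probe on this array and not a transcript count.

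Some arrays stood apart before any comparison. The interquartile range of log2 intensity ran from 3.36 to 3.67 over the 12 arrays at 1 month, from 1.48 to 2.23 in 3M Control and from 2.07 to 2.70 in 3M STZ. The array of 3M Control replicate 2 was the lowest of its group for 21 of 23 members (not for Cox17 and Ndufaf4), and replicate 6 was the highest for 20. The rod genes Sag, Pdc and Prph2 were bright, with mean levels from 6.44 to 7.05. Of the marker lists, the lens list (Crygd, Cryba2, Lim2, Lenep) summed to between 61.2 and 113 times the array median in 3M Control and between 139 and 311 times in 3M STZ, and 3 of its 4 genes were called higher with median scaling (50.5% of all tested probes) and 2 with quantile normalization or cyclic loess. The reactive glia list (Gfap, Vim, Cd44, Cp) summed to between 15.8 and 40.8 in 3M Control and between 61.2 and 90.9 in 3M STZ, with 4 of 4 called higher under each of the 3 scalings. The part of array spread, of lens RNA and of reactive glia in the members' differences was not tested.

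**Figure D1:**
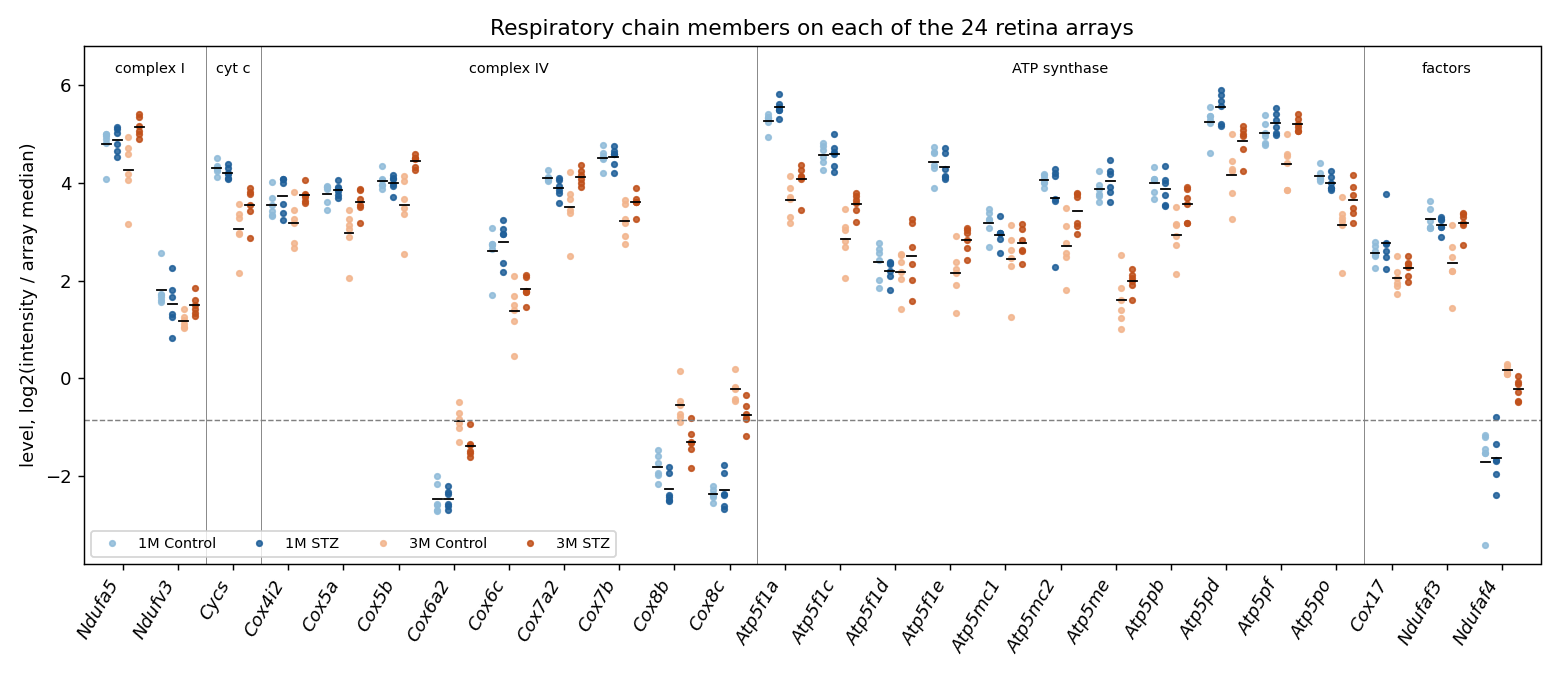
Level of each of the 26 members on each of the 24 arrays, as log2 of the intensity over the array's median probe. Each point is 1 array, each black bar the mean of 6 arrays, and the dashed line the limit of -0.85 below which a probe was not tested. Under this scaling most members sit lower in 3M Control than in 3M STZ, which quantile normalization and cyclic loess did not keep, while the 1 month groups overlap, and Cox6a2, Cox8b, Cox8c and Ndufaf4 sit near or below the line.

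After 3 months of diabetes, 16 of the 23 tested members were called higher in 3M STZ than in 3M Control and none lower under median scaling, and after quantile normalization or cyclic loess the count was 0 in both directions. Beside the 16 of 23, 50.5% of all 22025 tested probes were called higher and 3.55% lower, so most probes on the array moved the same way. The median difference was 0.56 on the log2 scale for the members and 0.44 for all tested probes. With quantile normalization these medians were -0.05 and 0.16, and with cyclic loess the members' median was -0.07. Of all tested probes, 24.6% were called higher and 6.92% lower with quantile normalization, and 11.3% higher and 5.44% lower with cyclic loess. At an unadjusted p under 0.05, 3 members passed with quantile normalization and 2 with cyclic loess. The members' rise over controls was thus measured only relative to each array's median probe. Leaving out each array in turn, the count ran from 11 (without 3M Control replicate 2, or without 3M STZ replicate 5) to 18 (without 3M Control replicate 6), and 11 of the 16 were called in each of the 24 fits that left 1 array out.

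**Figure D2:**
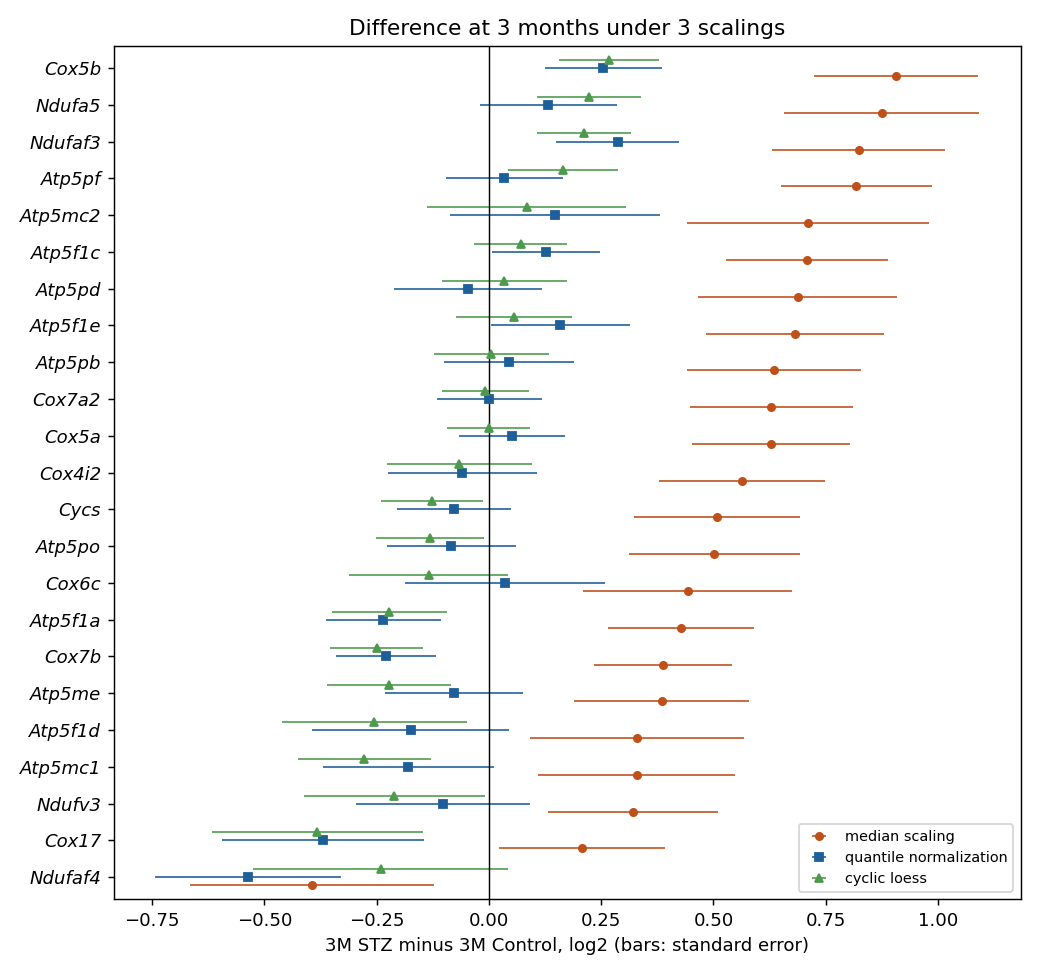
Difference between 3M STZ and 3M Control for the 23 tested members, in log2, under 3 scalings, with bars for the standard error from limma. With median scaling 22 of the 23 differences lie above 0, while with quantile normalization and cyclic loess they lie on both sides of it, 11 and 9 above.

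Complex I takes electrons into the chain, and both of its measured members are accessory subunits. Ndufa5, which belongs to the matrix arm, had levels of 3.15, 4.38 and 4.94 (lowest, median and highest of 6 arrays) in 3M Control and 4.90, 5.11 and 5.41 in 3M STZ. The diabetic arrays sat in a narrow band that touched the top of the control range. The difference was 0.87 ± 0.22 (SE, n = 6 per group, limma adjusted p = 0.00268), a 1.83-fold rise, and it was 0.13 ± 0.15 with quantile normalization (adjusted p = 0.542). Ndufv3, a subunit of the NADH-oxidising module, had levels of 1.03, 1.15 and 1.41 in 3M Control and 1.28, 1.45 and 1.84 in 3M STZ. Its difference of 0.32 ± 0.19 did not pass the test (limma adjusted p = 0.149).

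Cytochrome c carries electrons between complexes III and IV and starts caspase activation when it leaves the mitochondrion. Cycs, its somatic gene, had levels of 2.16, 3.12 and 3.56 in 3M Control and 2.87, 3.66 and 3.89 in 3M STZ. The groups overlapped, and the difference was 0.51 ± 0.18 (limma adjusted p = 0.0238). With quantile normalization it turned to -0.08 and with cyclic loess to -0.13, neither of them called. The call was also lost without 3M Control replicate 2 or without 3M STZ replicate 2, 5 or 6, with an adjusted p of up to 0.0827.

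Of the 6 tested complex IV subunits, 5 were called higher at 3 months with median scaling and none with quantile normalization or cyclic loess, where 4 and 1 of the 6 differences were positive. Cox5b, a nuclear-encoded subunit that binds zinc, had the largest difference of all members. Its levels were 2.54, 3.58 and 4.14 in 3M Control and 4.27, 4.50 and 4.59 in 3M STZ. Every diabetic array lay above every control array, and the difference was 0.91 ± 0.18 (limma adjusted p = 0.000639), a 1.87-fold rise. With quantile normalization Cox5b differed by 0.25 ± 0.13 (adjusted p = 0.138) and the groups overlapped. Cox5b was called in each of the 24 fits that left 1 array out, with an adjusted p between 6.44e-05 and 0.00243.

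Cox5a, Cox7a2 and Cox4i2 rose less. Cox5a, another subunit on the matrix side, went from 2.06, 3.10 and 3.45 in 3M Control to 3.18, 3.61 and 3.88 in 3M STZ, a difference of 0.63 ± 0.18 (limma adjusted p = 0.00565). Cox7a2, the widely expressed form of its subunit, went from 2.51, 3.55 and 4.22 to 3.92, 4.11 and 4.37, a difference of 0.63 ± 0.18 (limma adjusted p = 0.00675). With cyclic loess the differences of Cox5a and Cox7a2 were -0.00016 and -0.0075, so their direction rested on the scaling. Cox4i2, the lung form of subunit IV that is known to respond to low oxygen, differed by 0.56 ± 0.18 (limma adjusted p = 0.0141), with levels of 2.67, 3.21 and 3.81 in 3M Control and 3.60, 3.73 and 4.05 in 3M STZ. With quantile normalization and cyclic loess the difference of Cox4i2 was -0.06 and -0.07.

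Cox7b had the smallest difference of complex IV at 3 months, 0.39 ± 0.15 (limma adjusted p = 0.0361), and turned to -0.23 with quantile normalization and -0.25 with cyclic loess, neither called. Its call was lost without any of 8 arrays (3M Control replicate 2, 3 or 5, or 3M STZ replicate 1, 2, 3, 5 or 6), with an adjusted p of up to 0.1. Cox6c differed by 0.44 ± 0.23 and did not pass the test (limma adjusted p = 0.105), with levels from 0.47 to 2.10 in 3M Control and from 1.46 to 2.11 in 3M STZ.

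ATP synthase had the most members, and 8 of its 11 subunits were called higher at 3 months with median scaling and 0 with quantile normalization or cyclic loess, where 5 and 6 of the 11 differences were positive. The largest difference was in Atp5pf, coupling factor 6 of the stalk that holds the catalytic head. Its levels were 3.85, 4.48 and 5.01 in 3M Control and 5.07, 5.17 and 5.41 in 3M STZ. Every diabetic array lay above every control array, though the gap between them was narrow, and the difference was 0.82 ± 0.17 (limma adjusted p = 0.000734), a 1.76-fold rise. With quantile normalization Atp5pf differed by 0.03 ± 0.13 and the groups overlapped. Over all tested probes, 9.49% had every diabetic array above every control array at 3 months, and 2 of the 23 members, Cox5b and Atp5pf, did.

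Of the 4 measured subunits of the catalytic head and the central stalk, 3 were called higher with median scaling, as were 50.5% of all tested probes. Atp5f1c, the gamma subunit that turns inside the head, differed by 0.71 ± 0.18 (limma adjusted p = 0.00316), with levels of 2.06, 2.92 and 3.47 in 3M Control and 3.21, 3.62 and 3.79 in 3M STZ. Atp5f1e, the epsilon subunit at the foot of gamma, differed by 0.68 ± 0.20 (limma adjusted p = 0.00706). Atp5f1a, the catalytic-head subunit alpha, differed by 0.43 ± 0.16 (limma adjusted p = 0.0291) and by -0.23 with quantile normalization. The call of Atp5f1a was lost without 3M Control replicate 2 or 3 or 3M STZ replicate 3 or 5. Atp5f1d, the delta subunit of the central stalk, differed by 0.33 ± 0.24 and did not pass the test (limma adjusted p = 0.238).

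The membrane ring of subunit c is encoded by several genes whose mature proteins are identical. Atp5mc2 differed by 0.71 ± 0.27 (limma adjusted p = 0.0293), with levels of 1.80, 2.67 and 3.49 in 3M Control and 2.95, 3.44 and 3.78 in 3M STZ. Atp5mc1 differed by 0.33 ± 0.22 and was not called (limma adjusted p = 0.198), and the difference between these 2 genes was not tested. The call of Atp5mc2 was lost without 3M Control replicate 2 or 3 or without 3M STZ replicate 2, 5 or 6. In the stalk, Atp5pd (subunit d) differed by 0.69 ± 0.22 (limma adjusted p = 0.0128), Atp5pb (subunit b) by 0.64 ± 0.19 (limma adjusted p = 0.00956) and Atp5po, the oligomycin sensitivity conferral protein, by 0.50 ± 0.19 (limma adjusted p = 0.029). The call of Atp5po was lost without 3M Control replicate 2 or 3M STZ replicate 2, 5 or 6, and with quantile normalization Atp5pd and Atp5po had differences of -0.05 and -0.08. Atp5me, subunit e at the dimer interface, differed by 0.38 ± 0.19 and was not called (limma adjusted p = 0.0924).

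The 3 factors did not share a direction. Ndufaf3, a complex I assembly factor, had levels of 1.43, 2.34 and 3.15 in 3M Control and 2.73, 3.24 and 3.37 in 3M STZ, a difference of 0.82 ± 0.19 (limma adjusted p = 0.00172). After quantile normalization it was 0.29 ± 0.14 (adjusted p = 0.112). Cox17, the copper chaperone that supplies complex IV, differed by 0.21 ± 0.19 and did not pass the test (limma adjusted p = 0.339). It turned to -0.37 with quantile normalization and -0.38 with cyclic loess, neither of them called.

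Ndufaf4, the partner of Ndufaf3 in complex I assembly, was the one tested member with a negative difference under median scaling, and also the dimmest. Its levels were 0.08, 0.14 and 0.29 in 3M Control and -0.48, -0.20 and 0.05 in 3M STZ, so every diabetic array lay below every control array. Over all tested probes, 0.681% had this pattern at 3 months (1.58% after quantile normalization, where Ndufaf4 kept it). The difference was -0.39 ± 0.27 and was not called (limma adjusted p = 0.214). The pooled standard error of Ndufaf4 included the 1 month arrays, where its levels ran from -3.42 to -0.78. Its median level was -1.48 in 1M Control and -1.69 in 1M STZ, below the limit for testing. All its 3 month levels lay above that limit, so Ndufaf4 was tested through the 3 month arrays. In a model of the 3 month arrays alone the same difference was called (limma adjusted p = 0.0359), and ranked among the tested probes of each array Ndufaf4 fell by 18.0 percentage points (limma adjusted p = 0.000507), the one member called on ranks. Under the 2 settings 2.63% and 10.3% of all probes were called lower.

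Compared with other probes of like signal, the members lay on both sides of the median at 3 months, and more of them lay in the lower part than in the upper. The 3142 tested RefSeq-named probes were divided into 10 bins of near equal size by mean level over the 24 arrays, and the median difference of the other probes climbed from -0.00 in the dimmest bin to 0.68 in the brightest. In the 2 brightest bins, 16 of the 18 members (88.9%) and 495 of the 611 other probes (81.0%) were called higher, with median differences of 0.63 and 0.65. With quantile normalization 0 of those 18 members and 36 of the 611 others (5.89%) were called higher. Against the median of their own bin, 10 of the 23 members had a larger difference and 13 a smaller one, with a median of -0.05. Between the quartiles of the other probes of their bin lay 8 of the 23 members, while 11 lay below the lower quartile (Atp5f1a, Atp5f1d, Atp5mc1, Atp5me, Atp5po, Cox6c, Cox7b, Cox17, Cycs, Ndufaf4 and Ndufv3) and 4 above the upper (Atp5pf, Cox5b, Ndufa5 and Ndufaf3). The largest excess over the bin's median was 0.22 in Cox5b, followed by 0.21 in Ndufaf3 and 0.19 in Ndufa5, and the largest shortfall was -0.40 in Cox17. These are descriptions with no test of the members as a group.

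**Figure D3:**
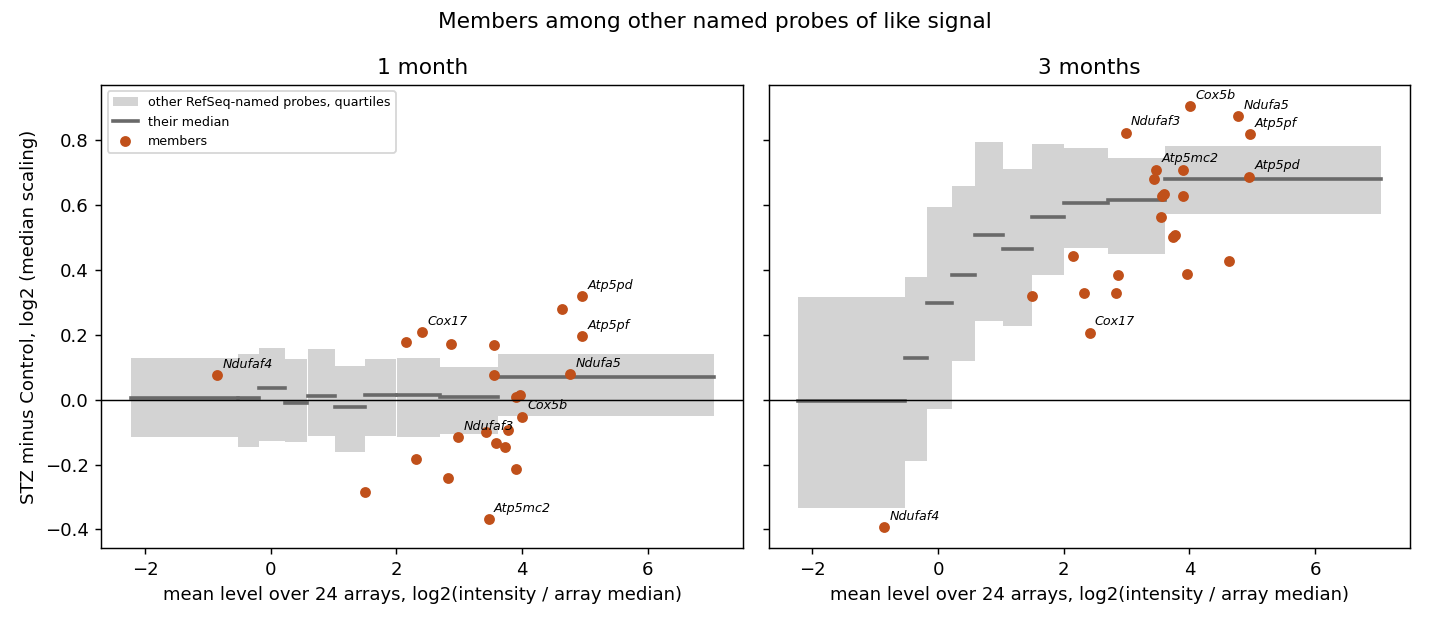
Difference between STZ and Control in log2 with median scaling, at 1 month (left) and 3 months (right), against the mean level over 24 arrays. Points are the 23 tested members, and the dark lines and grey boxes give the median and quartiles of the other RefSeq-named probes in each of 10 bins of signal. At 3 months the dark lines climb with the level and the members lie on both sides of them. At 1 month the dark lines stay near 0, while the members lie between -0.37 and 0.32.

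At 1 month no member was called under any setting run. With median scaling 12 of the 23 differences were positive and 11 negative, with a median of 0.01, against 0.01 over all tested probes, of which 0.00908% were called. None of the members had an unadjusted limma p under 0.05, and 1 had with quantile normalization. The most positive difference was in Atp5pd at 0.32 ± 0.22, with levels of 4.61, 5.33 and 5.56 in 1M Control and 5.16, 5.63 and 5.90 in 1M STZ. The lowest of these control levels was that of 1M Control replicate 5, without which the difference of Atp5pd was 0.19 and Atp5f1a had the most positive one (0.29). The most negative was in Atp5mc2 at -0.37 ± 0.27, where 1M STZ replicate 6 had a level of 2.27 and the others of its group lay between 3.62 and 4.29. Without 1M STZ replicate 6 the difference of Atp5mc2 was -0.08, and Ndufv3 had the most negative one (-0.31). In complex IV the differences ran from -0.21 in Cox7a2 to 0.18 in Cox6c, and in complex I from -0.28 in Ndufv3 to 0.08 in Ndufa5. Without 1M Control replicate 5 the difference was -0.003 in Cox6c, -0.06 in Ndufa5 and -0.13 in Ndufv3.

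**Figure D4:**
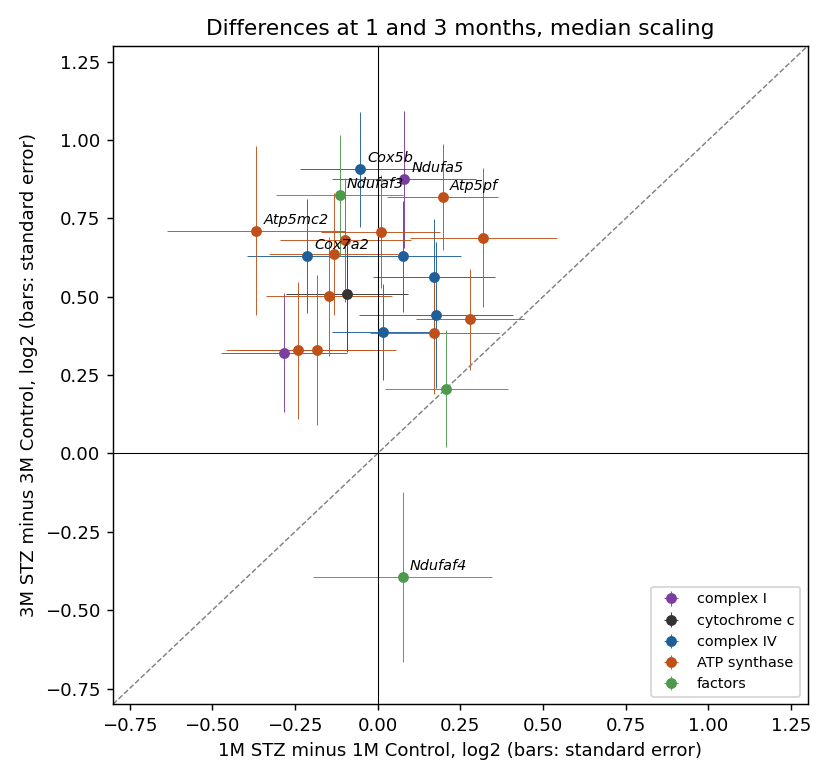
Difference between STZ and Control at 3 months (vertical) against 1 month (horizontal) for the 23 tested members, in log2 with median scaling, with bars for the standard error and colour for the complex. The dashed line marks equal differences, and 21 of the 23 members lie above it, while Ndufaf4 lies well below it and Cox17 on it.

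The effect of diabetes at 3 months was compared with that at 1 month in the same model. With median scaling 3 of the 23 members were called, all with a more positive effect at 3 months, against 14.8% of all tested probes called in that direction. They were Cox5b (0.96 ± 0.26, limma adjusted p = 0.0267), Ndufaf3 (0.94 ± 0.27, limma adjusted p = 0.0308) and Cox7a2 (0.84 ± 0.26, limma adjusted p = 0.0348). With quantile normalization and cyclic loess none was called. For these 3 genes the quantile values were 0.34, 0.42 and 0.25, with adjusted p of 0.24, 0.162 and 0.344. Atp5mc2 had the largest change between the times, 1.08 ± 0.38, but was not called (limma adjusted p = 0.0524). The size of that change rested in part on 1M STZ replicate 6. Without it the 1 month difference of Atp5mc2 was -0.08 instead of -0.37. Leaving out 1 array moved this count to 0 (without 3M STZ replicate 6), 1 (without 3M Control replicate 1 or 3, or 3M STZ replicate 5), 5 (without 1M STZ replicate 2, 3M Control replicate 4 or 3M STZ replicate 1), 6 (without 1M STZ replicate 1), 8 (without 3M STZ replicate 4) or 12 (without 3M Control replicate 6). Over the 24 fits the adjusted p of Cox5b reached at most 0.0501, that of Ndufaf3 0.057 and that of Cox7a2 0.0621.

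Levels at the 2 times were set side by side without a test, because time, animal set and array spread cannot be told apart. The mean of 3M Control lay below that of 1M Control for 22 of the 23 tested members, and for 10 of them every 3M Control array lay below every 1M Control array. Atp5f1e, for example, had levels of 3.89, 4.49 and 4.73 in 1M Control and 1.34, 2.19 and 2.91 in 3M Control. By rank the order was less uniform, and 14 of the 23 members had a lower mean rank in 3M Control than in 1M Control. Atp5f1e moved from a median rank of 96.7 to 85.9, whereas Ndufa5 stayed at 98.0 and 98.3 and Cox4i2 at 90.5 and 93.2.

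The members' median level was lowest in the group whose arrays had the smallest spread, and within the 3 month groups it mostly rose with the spread. It lay between 2.14 and 3.49 on the 3M Control arrays, between 3.18 and 3.79 on the 3M STZ arrays and between 3.75 and 4.13 on the arrays at 1 month. Within 3M Control the level rose with the interquartile range in all arrays but replicate 2. It went from 2.72 at a range of 1.48 (replicate 3) to 3.49 at 2.23 (replicate 6). Replicate 2 had the lowest level, 2.14, at a range of 1.80. In 3M STZ the level went from 3.185 at 2.07 (replicate 4) to 3.79 at 2.70 (replicate 6), with neighbouring arrays swapped in places. The other named probes of the 2 brightest bins had medians from 2.32 to 3.74 in 3M Control and from 3.44 to 3.98 in 3M STZ. The members' median minus that of these bright probes ran from -0.33 to -0.18 in 3M Control and from -0.56 to -0.14 in 3M STZ, and the groups overlapped. At 1 month it ran from 0.04 to 0.32 in controls and from -0.02 to 0.23 in diabetic rats.

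**Figure D5:**
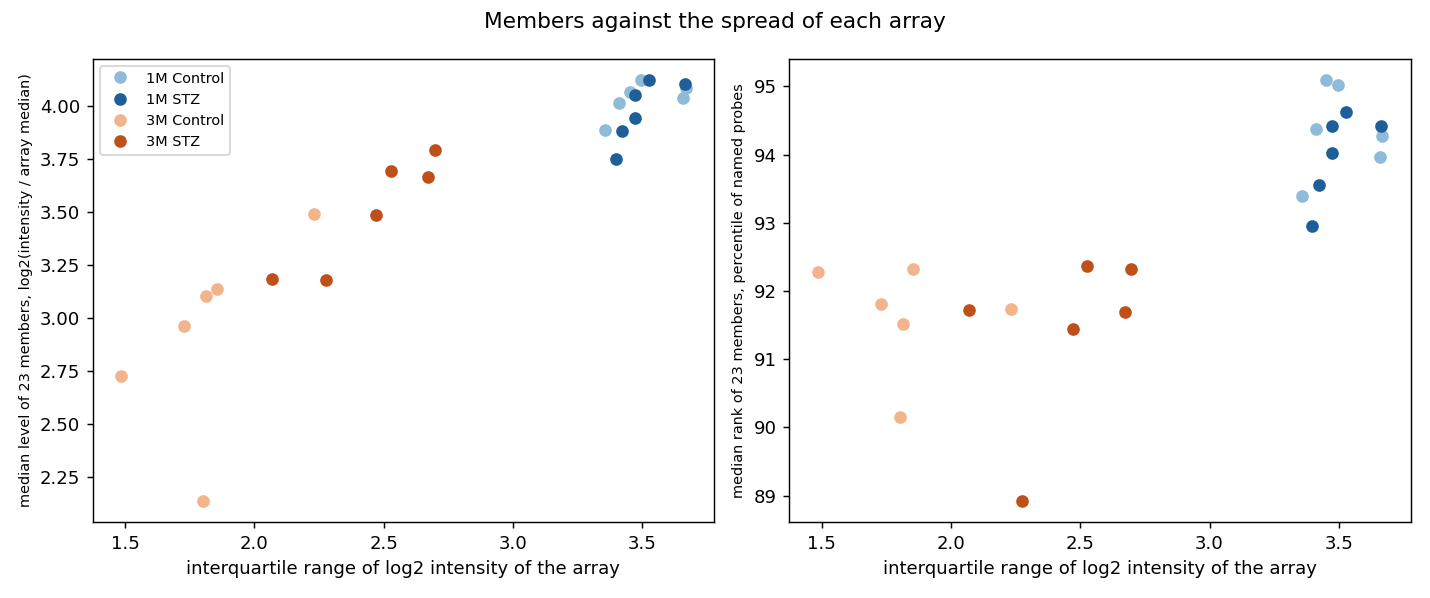
Median level of the 23 tested members (left, log2 of intensity over the array's median) and their median rank among named probes (right, percentile) on each array, against the interquartile range of log2 intensity of that array. Each point is 1 array. As a group 3M Control has the lowest levels and the smallest interquartile ranges, with overlap with 3M STZ in both. Within 3M Control the level rises with the range in all arrays but replicate 2. The ranks of the 3M Control and 3M STZ arrays overlap.

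For the heart, muscle and testis forms of complex IV subunits the median over the 24 arrays was below the limit. In 1M Control the median level was -2.58 for Cox6a2, -1.84 for Cox8b and -2.38 for Cox8c, and in 3M Control it was -0.87, -0.64 and -0.20. In 3M STZ it was -1.42 for Cox6a2, -1.31 for Cox8b and -0.76 for Cox8c, below 3M Control in each case. Their median ranks among named probes lay between 14.8 and 21.9 in 1M Control and between 20.8 and 42.7 in 3M Control, where Cox8c, from 33.5 to 54.7, reached the middle of the array. With every probe tested, limma called all 3 lower at 3 months, Cox6a2 by -0.50 (adjusted p = 0.0139), Cox8b by -0.76 (adjusted p = 0.00378) and Cox8c by -0.53 (adjusted p = 0.0117), where 14.2% of all 33849 rat probes were called lower. With quantile normalization of the same probes Cox8b (-0.999) and Cox8c (-0.62) were called and Cox6a2 (-0.48) was not, where 16.4% of these probes were called lower.

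Other genes of the pathway were read from lists outside the members, and 28 of them were tested, each by the brightest of its probes. With median scaling 15 (53.6%) were called higher and 2 lower at 3 months, near the 50.5% of all tested probes called higher, and their median difference was 0.46, against 0.44 for all. With quantile normalization 2 passed as higher (7.14%, against 24.6% of all) and 3 as lower, and the median was 0.08. Of the carriers that move ADP, phosphate and metabolites, 5 of 6 were called higher with median scaling and 0 with quantile normalization or cyclic loess. Among them Vdac1, a pore of the outer membrane, differed by 0.84 ± 0.18 (limma adjusted p = 0.000876) and by 0.08 with quantile normalization, and the phosphate carrier Slc25a3 differed by 0.43 ± 0.20 without passing the test (limma adjusted p = 0.0631). Sdhd, the one complex II subunit tested, differed by 0.64 ± 0.22 (limma adjusted p = 0.0177), and Etfdh, which feeds electrons from fatty acid oxidation into ubiquinone, by 0.69 ± 0.21 (limma adjusted p = 0.00929). With quantile normalization they differed by 0.25 and 0.29 and neither was called.

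Ucp2, Ucp1 and Polg were among the genes whose direction and call were kept with each of the 3 scalings. Ucp2, an inner membrane carrier of the uncoupling protein family, differed by 0.88 ± 0.16 (limma adjusted p = 0.000369), by 1.26 with quantile normalization and by 0.52 with cyclic loess. A dimmer second probe of Ucp2 differed by 0.51 (limma adjusted p = 0.0133), 0.84 and 0.23, the last not called. Ucp1, known from brown fat and dim here with a mean level of -0.25, differed by 0.49 ± 0.16 (limma adjusted p = 0.013), 1.26 and 0.40. Polg, the polymerase that copies mitochondrial DNA, differed by -0.69 (limma adjusted p = 0.00537), by -0.997 with quantile normalization and by -0.64 with cyclic loess, and was dim with a mean level of -0.60. The probes of 3 genes disagreed. Ucp3 differed by 0.07 on its brighter probe (limma adjusted p = 0.748) and by 0.48 on a dimmer one (limma adjusted p = 0.0242), and Ppargc1a, a coactivator of mitochondrial genes, by -0.16 (limma adjusted p = 0.372) and 0.25 (limma adjusted p = 0.102). The dimmer Ucp3 probe was also called with quantile normalization (1.15, limma adjusted p = 0.00294) and cyclic loess (0.55, limma adjusted p = 0.0251). The dimmer Ppargc1a probe was called with quantile normalization (0.72, limma adjusted p = 0.0069) and not with cyclic loess (0.24). The brighter probes of both genes were not called under any of the 3 scalings. The brighter probe of Slc25a27, a brain uncoupling protein, differed by 0.28 (limma adjusted p = 0.235) and the dimmer one by -0.43 (limma adjusted p = 0.0343).

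In the remaining lists, Ak3, an adenylate kinase of the matrix, differed by 0.82 (limma adjusted p = 0.00765), and Tfam, which packages and transcribes mitochondrial DNA, by 0.35 without passing the test (limma adjusted p = 0.129). Coq3, a methyltransferase of ubiquinone synthesis, differed by 0.69 (limma adjusted p = 0.00585) and Coq7, a hydroxylase of the same pathway, by 0.28 (limma adjusted p = 0.324). Timm23, the channel of the inner membrane import machinery, differed by 0.76 (limma adjusted p = 0.00295) and Timm8a1, one of its small chaperones, by 0.22 (limma adjusted p = 0.525). With quantile normalization or cyclic loess none of these 6 was called. Surf1, a complex IV assembly factor, differed by 0.23 (limma adjusted p = 0.237) with median scaling, and by -0.31 (adjusted p = 0.0333) and -0.38 (adjusted p = 0.0168) with quantile normalization and cyclic loess, where it was called lower.

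Many respiratory chain genes have processed copies in the rat genome. In GRCr8, named pseudogenes were listed for 15 of the 26 members, up to 5 for Ndufaf4 and 4 each for Atp5f1c, Atp5mc2, Atp5pf and Ndufa5. Probe sequences were not used here, so a share of the signal from such copies cannot be told apart from that of the gene.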

How the data were processed

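Per the labels and the study's methods, biotin-labelled cRNA of rat retinas was hybridised to 24 CodeLink whole genome arrays. Each was taken as a replicate, so p-values measure the spread between arrays. The most alike arrays of 1M Control correlated at 0.984 over tested probes, against 0.971 in 1M STZ, 0.977 in 3M Control and 0.98 in 3M STZ. The authors scanned them, excluded defective spots, subtracted the background and normalized within each array, and deposited 1 background-subtracted intensity and 1 normalized intensity per probe, both on a linear scale. The genome build is not given in the sources used here. Promoter motif letters were typed by hand as search settings.

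Each background-subtracted intensity was divided by its array's median over the 33849 rat probes, set to at least 0.01 and log2 transformed; 62 bacterial control probes were left out. Of 5469 probes with a RefSeq accession, 4675 matched a gene in GRCr8. Of these, 26 fitted the rule, and members and lists were chosen with earlier results of these data known. A probe was tested where its median exceeded the 35th percentile and each group had at least 4 values (22025 probes). One limma model (version 3.58.1, R 4.3.3) of 4 groups gave STZ minus Control at each time and the difference of these effects. The number of arrays limits the precision.

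Named members were the highest and lowest difference of each group of subunits at each time, the 10 lowest p at 3 months, all calls lower at 3 months, at 1 month or between times, calls that turned sign, and the tissue-specific forms. The others were named to account for all members. The highest and lowest gene of each pathway list at 3 months was named, and others are named for probes that disagreed or calls kept under 3 scalings, chosen after their values were seen. A gene of the pathway lists that counts in their totals is not reported here by name. Alternatives covered scaling, background, filters, tests and each array left out. Same-numbered arrays of STZ and Control correlated between -0.24 and 0.25, so the numbers were not taken as pairs.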

Additional observations from a re-analysis of the deposited data

Results flagged for a closer look

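In 9 of the 92 groups of 6 arrays examined (named members and the members' median level, 4 groups each), the highest or lowest array stood far from the other 5, and chance alone flags about 1 in 20 such groups. Replicate 5 of 1M Control was the outlying array in 5 of the 9. It was low for Ndufa5 (4.08, the others between 4.81 and 5.01), Atp5pd (4.61, the others between 5.22 and 5.56), Cox6c (1.71, the others between 2.65 and 3.08) and Ndufaf4 (-3.42, the others between -1.53 and -1.17), and high for Ndufv3 (2.56, the others between 1.57 and 1.73).

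In 1M STZ, replicate 6 was low for Atp5mc2 (2.27, the others between 3.62 and 4.29) and replicate 5 was high for Cox17 (3.77, the others between 2.24 and 2.76). In 3M STZ, replicate 3 was high for Cox4i2 (4.05, the others between 3.60 and 3.76) and replicate 4 was low for Ndufaf3 (2.73, the others between 3.14 and 3.37). No cause was tested.

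The effect of diabetes was more positive at 3 months than at 1 month for Cox5b by 0.96 ± 0.26 (limma adjusted p = 0.0267), Ndufaf3 by 0.94 ± 0.27 (limma adjusted p = 0.0308) and Cox7a2 by 0.84 ± 0.26 (limma adjusted p = 0.0348) with median scaling, and none of the 3 was called with quantile normalization or cyclic loess.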

How the results depend on the processing

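The 3 month count of 16 called members rested on the scaling. It was 0 with quantile normalization over all arrays or within each time point and with cyclic loess, 1 (lower) on within-array ranks, 2 with the methods' test at its unadjusted threshold (Atp5pf higher, Ndufaf4 lower), 0 after Benjamini-Hochberg adjustment of that test, and 2 (lower) with quantile normalization and no filter, a setting chosen after seeing the data. Under the other settings between 11 and 17 were called higher. With no filter 3 of 26 were also called lower, and with separate models of the time points 1 was. With 1 array left out, 11 to 18 were called. The median difference of 0.56 was -0.047 and -0.048 with quantile normalization over all arrays and within time points, -0.066 with cyclic loess, -0.068 with quantile normalization and no filter, and -0.446 percentage points on ranks, and it ran from 0.43 to 0.69 with 1 array left out. The count of 3 members whose effect differed between times was 0 with quantile normalization over all arrays, within time points or with no filter and with cyclic loess, 1 (lower) on ranks, 1 after subtraction of the 5th percentile, 5 with the limit passed on all 24 arrays and 15 with array weights, and it ran from 0 to 12 with 1 array left out. At 1 month the count was 0 under every setting, and the median of 0.01 was -0.182 percentage points on ranks and ran from -0.08 to 0.04 with 1 array left out. With the replicate block, 16 members were called at 3 months, 0 at 1 month and 3 between the times, as without it.

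Of the called members named, several turned sign. Atp5pd was -0.047, -0.048 and -0.184 (quantile over all arrays, quantile within time points, percentage points of rank), Cox7b -0.23, -0.234 and -1.65, and Cycs -0.077, -0.078 and -0.768. With cyclic loess Cox7b was -0.25, Cycs -0.126, Cox5a -0.00016 and Cox7a2 -0.0075. Atp5f1a, Atp5po and Cox4i2 also turned, to -0.235, -0.084 and -0.06 with quantile normalization over all arrays and -0.222, -0.131 and -0.066 with cyclic loess. In percentage points of rank these 3 were -1.06, -0.867 and -0.512. The cause was not tested. Each member had 1 probe, so taking 1 probe per gene gave the same values. Low signal over background limits what can be said of Cox6a2, Cox8b, Cox8c and Ndufaf4.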
